A study of Mus musculus with 4 samples.

Results

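Genes that charge tRNAs with amino acids, and genes of the ATF4 response to amino acid shortage, were examined in perivascular adipose tissue (PVAT) after vascular injury. They were taken by name from a list of 51 symbols, of which 49 had a row among the 12661 genes of the expression table. These 49 comprise 20 cytosolic aminoacyl-tRNA synthetase genes, 15 mitochondrial synthetase genes and 14 genes of the ATF4 axis. Rows named *Pars2* and *Vldlr2* were not analysed here. Outer tissues of the femoral artery, labelled as PVAT, were taken 48 h after the artery had been injured with a 0.38 mm spring wire or sham-operated, with 2 libraries per group. All 4 libraries came from wild type C57BL/6 female mice that were 11 weeks old by the labels and had been ovariectomized, so that the sham-operated controls lacked ovaries too. The labels do not say whether each library is a separate animal or a pool, and the p-values measure only the spread between these libraries.

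Aminoacyl-tRNA synthetases join each amino acid to its tRNA, and cells hold separate sets of them for the ribosomes of the cytosol and those of mitochondria. Uncharged tRNA activates the kinase GCN2, which phosphorylates the translation factor eIF2. General protein synthesis then falls while the transcription factor ATF4 is made, and ATF4 raises genes for amino acid synthesis, uptake and tRNA charging. ER stress, haem shortage, viral RNA and mitochondrial defects reach ATF4 through related kinases, and in brown fat and muscle ATF4 is known as part of the response to impaired mitochondria.

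ATF4 binds with C/EBP partners to a short element whose core can be written TGATGNAA, where N is any base. This core was searched on both strands in the promoters of the members (RefSeq, GRCm38.p6, from 250 bases before the transcription start to 50 after it). At least 1 promoter was listed for 41 of the 49 members, and not for *Cars*, *Hars*, *Lars*, *Nars*, *Rars*, *Vars*, *Wars* or *Hars2*. The core was found for 5 of 13 cytosolic synthetase genes, for 0 of 14 mitochondrial synthetase genes and for 5 of 14 ATF4 axis genes, whereas 3.97% of all 32851 promoters of the table held it. A gene was counted if any of its promoters matched, whereas the share over the table is per promoter. The lists hold genes chosen for a known link to ATF4 or to tRNA charging, so these shares are not a test. A match is a description of the letters in this window and not a measured binding site. The matches of 9 of these genes are shown within 30 bases of sequence, since they mark the members that the ATF4 element would single out. Each is written from 5′ to 3′ on the strand of the gene with the core in capitals, and TTNCATCA is the core read on the other strand.
Gars (chr6:55037960-55037989, + strand): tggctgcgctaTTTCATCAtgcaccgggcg
Iars (chr13:49682126-49682155, + strand): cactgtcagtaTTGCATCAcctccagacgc
Tars (chr15:11399655-11399684, - strand): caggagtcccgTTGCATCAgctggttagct
Yars (chr4:129189895-129189924, + strand): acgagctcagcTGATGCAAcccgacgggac
Atf3 (chr1:191183425-191183454, - strand): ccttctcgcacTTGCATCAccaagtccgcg
Asns (chr6:7693214-7693243, - strand): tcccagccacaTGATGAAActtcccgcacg
Trib3 (chr2:152344028-152344057, - strand): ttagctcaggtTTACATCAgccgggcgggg
Chac1 (chr2:119351038-119351067, + strand): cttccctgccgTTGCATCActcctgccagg
Nupr1 (chr7:126625562-126625591, - strand): aaagggccagaTTGCATCAgacagggcttg
The match of *Atf3* began at base 141 and that of *Asns* at base 228, counted from 1 at the 5′ end.

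The deposited values are signed numbers whose scale, base and zero point are not given in the sources used here, and the median of each library lay within 0.0062 of 0. They are given here in deposited units, without conversion to fold change, and levels cannot be compared between genes. Depth is unknown. Injury was set against sham operation by limma, and p-values were adjusted by Benjamini-Hochberg across all 12661 genes. At an adjusted p-value under 0.05, 7.43% of all genes were called, against 0 of the 49 members. Without adjustment, 5 of the 49 (10.2%) and 29.5% of all genes had p under 0.05. The injury libraries lay apart from the sham libraries, with no overlap, in 21 of the 49 (42.9%), and in 61.9% of all genes (injury above in 31.6%, below in 30.3%). The median size of the difference, regardless of sign, was 0.12 units over the members and 0.25 units over all genes. The smallest p-value that exact permutation allows for 1 gene in this design is 0.333. A difference of about 0.71 units would have been needed for a call at the median standard error of the members.

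The cell markers in these bulk libraries differed between the groups as well, and a smaller number of cells of a type cannot be told apart from less RNA in each cell. The adipocyte genes *Adipoq*, *Plin1* and *Fabp4* had rows, but values on this scale do not tell how abundant any cell type was. Each of 13 macrophage markers had its injury values above its sham values, with list medians of -1.20 and -1.17 after sham operation and of 0.55 and -0.10 after injury. Brown adipocyte markers (9 of 9) showed the same order, at medians of 0.59 and 0.89 after sham operation and 1.79 and 1.77 after injury. Smooth muscle markers (7 of 7) had the opposite order, at 1.72 and 1.03 after sham operation and at -1.39 and -0.20 after injury. Among 10 adipocyte markers 5 had injury values below both sham values and 0 above. Values lay above for 6 of 6 neutrophil markers and 1 of 7 proliferation markers, below for 6 of 7 endothelial markers, and above for 1 and below for 3 of 6 skeletal muscle markers. The part of these cells in the values of the synthetase and ATF4 genes was not tested.

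**Figure D1:**
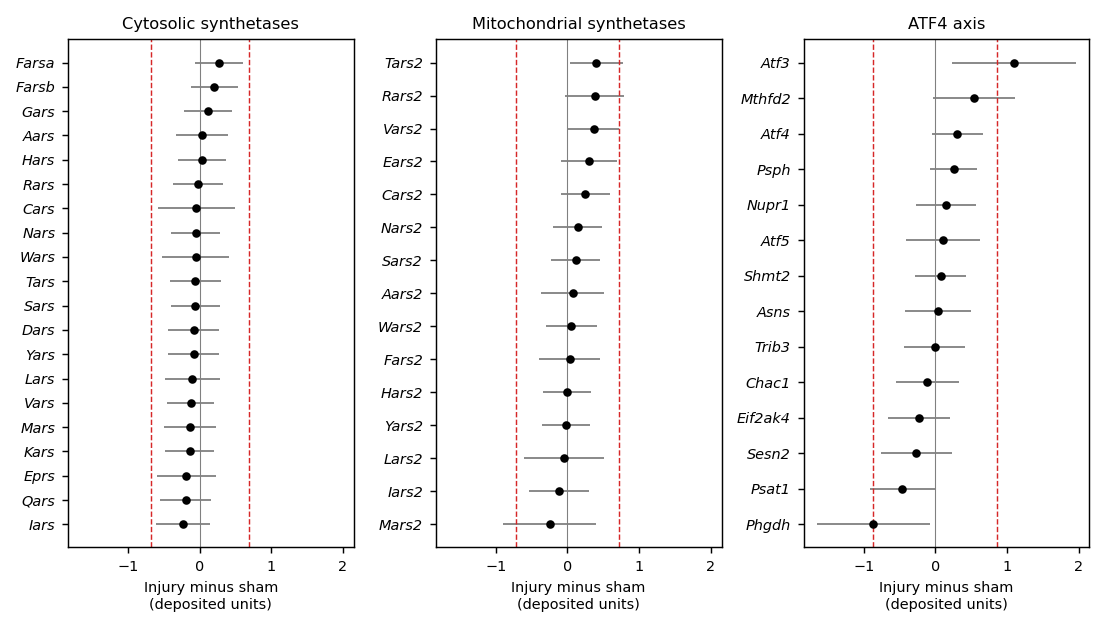
Difference between injury and sham means for each member (points, deposited units) with 95% intervals from limma (n = 2 libraries per group). Dashed red lines mark the difference that a call would need at the median standard error of the list, 0.68, 0.72 and 0.87 units from left to right. No synthetase point reaches its lines, while *Atf3* lies beyond them with a wider interval than most.

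Differences of the cytosolic synthetase genes between injured and sham-operated PVAT were small. None of the 20 was called by limma in either direction, none reached an unadjusted p-value under 0.05, and their differences ran from -0.23 to 0.27 with a median of -0.06. Omitting injury replicate 1 gave a median of -0.11, and omitting injury replicate 2 gave 0.019. The 95% intervals of all 20 lay between -0.60 and 0.61 units. Differences were above 0 in 5 genes and below 0 in 15. Groups did not overlap in 8 of the 20 (40%), less than the 61.9% of all genes, with the injury libraries above in 3 genes and below in 5.

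The highest differences belonged to *Farsa* and *Farsb*, which encode the alpha and beta subunits of one phenylalanine-charging enzyme. *Farsa* was at -0.29 and -0.19 after sham operation and at 0.05 and 0.02 after injury. *Farsb* was at -0.07 and -0.12 after sham operation and at 0.12 and 0.11 after injury. Both subunit genes were therefore above their sham values in each injury library, by 0.27 (95% interval -0.07 to 0.61, adjusted p = 0.246) and 0.21 (-0.12 to 0.54, adjusted p = 0.353) by limma. *Gars*, whose product charges glycine in cytosol and mitochondria alike, was the remaining gene with the injury libraries on top. Its values were -0.19 and -0.09 after sham operation and -0.01 and -0.03 after injury, a difference of 0.12.

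The lowest difference was that of *Iars*, the isoleucine enzyme, with 0.14 and -0.02 after sham operation and -0.08 and -0.26 after injury. Its groups did not overlap, and the difference was -0.23 (95% interval -0.60 to 0.14, adjusted p = 0.362 by limma). *Qars*, the glutamine enzyme, was at -0.02 and -0.14 after sham operation and at -0.35 and -0.20 after injury, a difference of -0.20. *Kars*, which like *Gars* supplies both compartments, *Mars* and *Vars* also had injury values below all sham values. Their differences were -0.14, -0.13 and -0.12 units. *Iars*, *Qars*, *Kars* and *Mars* belong to the multisynthetase complex of the cytosol. The other charging enzymes of that complex had overlapping groups. *Eprs*, the bifunctional glutamate and proline enzyme, differed by -0.19, *Lars* by -0.10, *Dars* by -0.08 and *Rars* by -0.02.

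*Wars*, the tryptophan enzyme, is known as an interferon-induced gene. It was at 0.18 and 0.07 after sham operation and at 0.28 and -0.14 after injury, so that the injury libraries enclosed both sham values. Its difference was -0.06 (95% interval -0.52 to 0.41). *Cars* had the largest standard error of the cytosolic genes, 0.21, being at -0.41 and 0.01 after sham operation and at -0.06 and -0.44 after injury. The genes not yet named lay close to 0, with *Aars* at 0.04, *Hars* at 0.03, *Nars* at -0.05, *Sars* at -0.06, *Tars* at -0.06 and *Yars* at -0.08 units of difference. Of the 5 cytosolic synthetase genes with the ATF4 core in the promoter, *Gars* had the highest difference, 0.12, and *Iars* the lowest, -0.23, with a median of -0.06. The 8 genes without a match in this window had a median of -0.11.

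**Figure D2:**
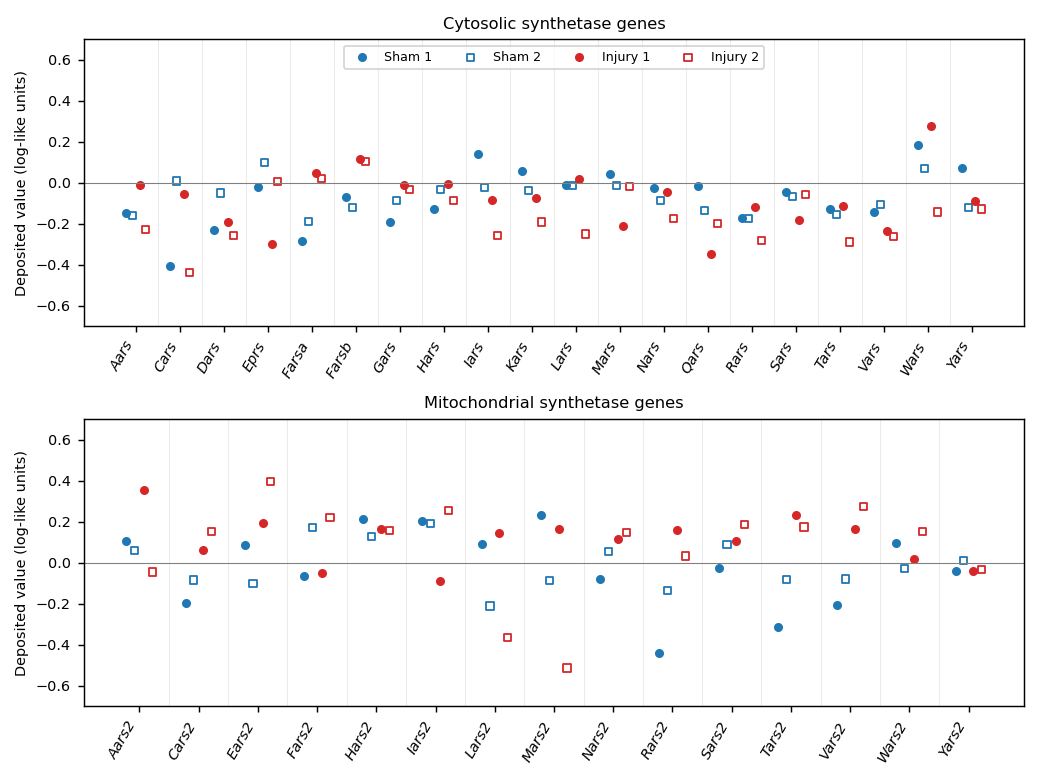
Deposited value of each cytosolic (top) and mitochondrial (bottom) synthetase gene in the 2 sham libraries (blue) and 2 injury libraries (red), with replicate 1 as filled circles and replicate 2 as open squares. Red and blue mix for most cytosolic genes, whereas for 7 mitochondrial genes both red points lie above both blue points.

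None of the mitochondrial synthetase genes was called by limma. The differences of the 15 genes ran from -0.25 to 0.40 with a median of 0.07, and 10 were above 0. With 1 library omitted the median was 0.094 to 0.15, the highest value being that without injury replicate 1. In 7 genes, *Cars2*, *Ears2*, *Nars2*, *Rars2*, *Sars2*, *Tars2* and *Vars2*, both injury libraries lay above both sham libraries, and in 0 genes did they lie below. These 7 of 15 (46.7%) compare with 61.9% of all genes apart in either direction and 31.6% with injury above. *Tars2* and *Vars2* (2 of 15, 13.3%) had unadjusted p-values under 0.05 by limma, against 29.5% of all genes.

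*Tars2*, the mitochondrial threonine enzyme, was at -0.31 and -0.08 after sham operation and at 0.23 and 0.17 after injury. The difference of 0.40 had a 95% interval of 0.03 to 0.77 and an adjusted p-value of 0.149 by limma. *Vars2*, the valine enzyme, was at -0.21 and -0.08 after sham operation and at 0.17 and 0.28 after injury. It differed by 0.36 (95% interval 0.01 to 0.71, adjusted p = 0.159 by limma). These intervals just left out 0, while neither gene passed the threshold over all genes. *Rars2*, the arginine enzyme, was at -0.44 and -0.13 after sham operation and at 0.16 and 0.03 after injury, a difference of 0.38 (95% interval -0.03 to 0.79, adjusted p = 0.192 by limma). Sham replicate 1 was the lowest library, and without it the difference was 0.23. *Ears2* charges glutamate and also the mitochondrial glutamine tRNA, which is then amidated. It was at 0.09 and -0.10 after sham operation and at 0.19 and 0.40 after injury, a difference of 0.30. *Cars2*, the cysteine enzyme, was at -0.20 and -0.08 after sham operation and at 0.06 and 0.15 after injury, a difference of 0.25. *Nars2* and *Sars2*, for asparagine and serine, differed by 0.15 and 0.11, and by 0.077 and 0.057 without sham replicate 1.

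The other 8 mitochondrial genes had overlapping groups. *Mars2*, the methionine enzyme, had the lowest difference, -0.25, with values of 0.24 and -0.08 after sham operation and of 0.16 and -0.51 after injury. Injury replicate 2 alone lay below the rest, and without it the difference was 0.09. In *Lars2*, the leucine enzyme, the injury values enclosed the sham values, with 0.09 and -0.21 after sham operation and 0.15 and -0.36 after injury. In *Iars2*, by contrast, injury replicate 1 was the low library, at -0.09 against 0.25 in injury replicate 2 and 0.20 and 0.19 after sham operation. *Aars2*, *Fars2*, *Wars2*, *Hars2* and *Yars2* differed by 0.07, 0.03, 0.05, -0.01 and -0.02 units.

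Cytosolic and mitochondrial enzymes for the same amino acid could be set side by side for 13 amino acids. The difference between injury and sham was higher for the mitochondrial gene in 11 pairs and lower in 2, *Hars* with *Hars2* and *Mars* with *Mars2*, with a median gap of 0.12 units. The order could turn when 1 library was left out. Without injury replicate 2, *Iars* and *Iars2* were at -0.14 and -0.29 and *Wars* and *Wars2* at 0.15 and -0.013. Without injury replicate 1, *Aars* and *Aars2* were at -0.073 and -0.13 and *Lars* and *Lars2* at -0.24 and -0.31. Without sham replicate 1, *Yars* and *Yars2* were at 0.010 and -0.048. The *Hars* and *Mars* pairs turned the other way, without sham replicate 1 and without injury replicate 2. For 5 pairs the mitochondrial value minus the cytosolic value in each injury library exceeded that in each sham library, and for 0 pairs the order was reversed. No share over other gene pairs was computed, and among single genes 31.6% lay apart with injury above. The 5 were the pairs for valine, threonine, arginine, asparagine and serine. In the valine pair this quantity was -0.07 and 0.03 after sham operation and 0.40 and 0.54 after injury. In the threonine pair it was -0.18 and 0.07 after sham operation and 0.35 and 0.46 after injury. The arginine pair had -0.27 and 0.04 after sham operation and 0.28 and 0.31 after injury. These gaps of 0.49, 0.46 and 0.41 units are descriptions and were not tested. The promoters of *Tars*, *Tars2* and *Vars2* (RefSeq, GRCm38.p6) are given because these genes belong to the 2 pairs with the largest gaps. *Tars* is written with the ATF4 core in capitals, and the other promoters hold no match.
Tars (chr15:11399609-11399908, - strand): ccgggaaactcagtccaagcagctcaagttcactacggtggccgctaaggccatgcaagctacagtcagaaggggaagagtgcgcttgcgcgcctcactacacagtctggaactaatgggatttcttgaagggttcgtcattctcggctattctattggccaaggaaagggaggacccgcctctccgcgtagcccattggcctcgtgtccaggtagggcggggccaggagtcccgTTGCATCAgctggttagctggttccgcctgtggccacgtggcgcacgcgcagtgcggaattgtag
Tars2 (chr3:95754928-95755227, - strand): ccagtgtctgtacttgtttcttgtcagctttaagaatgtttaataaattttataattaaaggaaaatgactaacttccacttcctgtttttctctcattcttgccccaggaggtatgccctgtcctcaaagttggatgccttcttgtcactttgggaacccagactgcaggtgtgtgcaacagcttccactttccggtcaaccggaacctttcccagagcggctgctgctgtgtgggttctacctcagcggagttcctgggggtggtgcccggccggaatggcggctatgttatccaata
Vars2 (chr17:35667543-35667842, - strand): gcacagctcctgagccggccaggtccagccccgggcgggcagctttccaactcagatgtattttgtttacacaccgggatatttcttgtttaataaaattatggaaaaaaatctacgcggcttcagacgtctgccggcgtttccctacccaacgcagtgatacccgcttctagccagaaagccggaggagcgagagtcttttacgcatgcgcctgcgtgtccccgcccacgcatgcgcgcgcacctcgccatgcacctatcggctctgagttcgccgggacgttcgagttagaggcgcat

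**Figure D3:**
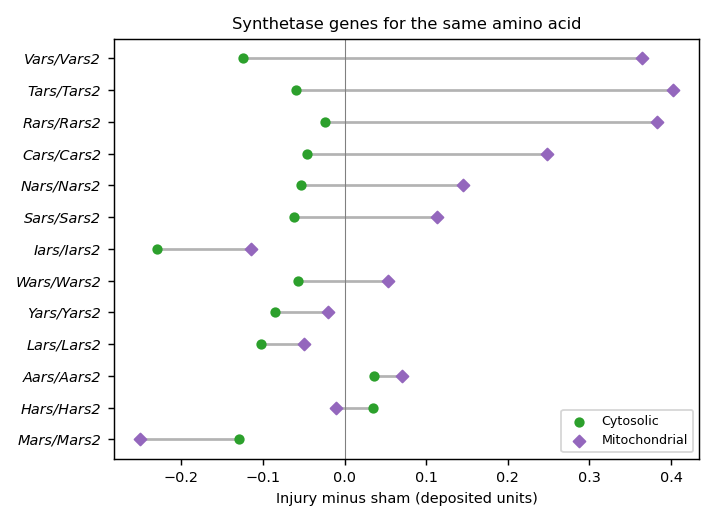
Difference between injury and sham means (deposited units, n = 2 libraries per group) of the cytosolic (green circles) and the mitochondrial (purple diamonds) synthetase gene for the same amino acid, ordered by the gap. The diamond lies to the right of the circle in 11 of 13 pairs, by most for *Vars2* (0.49 units).

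None of the 14 genes of the ATF4 axis was called by limma. The median size of their differences, regardless of sign, was 0.24 units, beside 0.25 over all genes and 0.11 over the 35 synthetase genes. Their differences ran from -0.86 to 1.10 with a median of 0.06, and the median became -0.083 when injury replicate 2 was omitted and 0.12 when injury replicate 1 was. Among them *Atf3*, *Phgdh* and *Psat1* (3 of 14, 21.4%) had an unadjusted p-value under 0.05, against 29.5% of all genes. Injury libraries lay above sham libraries in *Atf3*, *Atf4*, *Psph* and *Mthfd2* and below them in *Phgdh* and *Psat1*. These 6 of 14 (42.9%) were apart where 61.9% of all genes were. A difference of at least 0.5 units in either direction was seen in *Atf3*, *Phgdh* and *Mthfd2*, and in 0 of the 35 synthetase genes, where 24.4% of all genes had one.

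*Atf3* encodes a bZIP factor that ATF4 induces and that inflammatory signals and immediate early signalling induce as well. It lies on chromosome 1 of mm9 from 192994175 to 193007219 on the minus strand. Its values were -0.15 and -0.96 after sham operation and 0.89 and 0.20 after injury. All injury values exceeded all sham values, with a wide spread within each group. The means were -0.56 ± 0.57 (SD, n = 2) and 0.55 ± 0.49 (SD, n = 2), a difference of 1.10 (standard error 0.35, 95% interval 0.23 to 1.97, adjusted p = 0.110 by limma). Omitting sham replicate 2 left a difference of 0.70, and omitting sham replicate 1 left 1.51. Its promoter (RefSeq, GRCm38.p6) is shown because *Atf3* had the largest difference of the members, with the ATF4 core in capitals.
Atf3 (chr1:191183284-191183583, - strand): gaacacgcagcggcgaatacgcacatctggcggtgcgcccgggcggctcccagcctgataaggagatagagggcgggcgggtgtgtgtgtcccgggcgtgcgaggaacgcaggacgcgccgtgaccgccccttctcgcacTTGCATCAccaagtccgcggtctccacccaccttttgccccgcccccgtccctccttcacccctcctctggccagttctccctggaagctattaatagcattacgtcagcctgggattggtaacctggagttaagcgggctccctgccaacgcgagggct

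*Atf4* itself, on chromosome 15 of mm9 from 80085614 to 80087970 on the plus strand, was at -0.18 and -0.34 after sham operation and at 0.10 and -0.01 after injury. The groups did not overlap, and the difference of 0.31 was not called (95% interval -0.05 to 0.66, adjusted p = 0.221 by limma). ATF4 is governed largely through translation, which these mRNA values do not measure. *Atf5*, a related factor, was at 0.50 and -0.03 after sham operation and at 0.37 and 0.31 after injury, so that the sham libraries enclosed the injury values. *Eif2ak4*, which encodes GCN2, was at 0.25 and 0.04 after sham operation and at -0.24 and 0.07 after injury. Its groups overlapped, with a difference of -0.23 (95% interval -0.66 to 0.20).

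**Figure D4:**
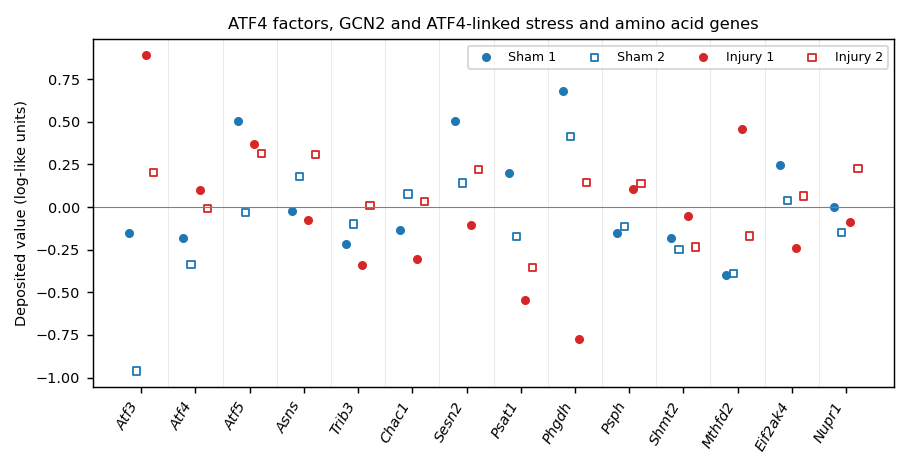
Deposited value of each ATF4 axis gene in the 2 sham libraries (blue) and 2 injury libraries (red), with replicate 1 as filled circles and replicate 2 as open squares. *Atf3* runs from -0.96 to 0.89, and in *Phgdh* (-0.78 and 0.14) and *Mthfd2* (0.46 and -0.17) the injury libraries stand far apart.

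Several genes often used as readouts of ATF4 had small differences with intervals around 0. *Asns*, which makes asparagine and carries the element TGATGAAA shown above, was at -0.02 and 0.18 after sham operation and at -0.07 and 0.31 after injury. The injury values enclosed the sham values, and the difference of 0.04 had a 95% interval of -0.43 to 0.50. *Trib3*, a pseudokinase that restrains ATF4, differed by -0.01 (95% interval -0.44 to 0.42) and was at -0.22 and -0.10 after sham operation and at -0.34 and 0.01 after injury. *Chac1*, which degrades glutathione, differed by -0.11 (95% interval -0.55 to 0.33) and was at -0.13 and 0.08 after sham operation and at -0.31 and 0.03 after injury. Injury replicate 1 was the lowest library for all 3 genes. *Sesn2*, a leucine sensor upstream of mTORC1, was at 0.50 and 0.14 after sham operation and at -0.11 and 0.22 after injury, a difference of -0.27. *Nupr1*, a small stress-induced chromatin protein, was at 0.00 and -0.15 after sham operation and at -0.09 and 0.23 after injury, a difference of 0.15. Over the 5 axis genes with the ATF4 core in the promoter, *Atf3*, *Asns*, *Trib3*, *Chac1* and *Nupr1*, the median difference was 0.04, and over the other 9 it was 0.07. *Atf3* stood alone among these 5, since the other differences lay between -0.11 and 0.15.

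The differences of the serine synthesis genes had both signs, and none was called. *Phgdh*, which opens the pathway from glycolysis to serine, lies on chromosome 3 of mm9 from 98117093 to 98143913 on the minus strand. It was at 0.68 and 0.41 after sham operation and at -0.78 and 0.14 after injury. Both injury values lay below both sham values, though injury replicate 1 was far lower than injury replicate 2. The difference was -0.86 (standard error 0.32, 95% interval -1.66 to -0.07, adjusted p = 0.146 by limma), and it became -0.41 when injury replicate 1 was left out. Leaving out injury replicate 2 in its place gave -1.32 and a call (adjusted p = 0.0165 by limma). *Psat1*, the aminotransferase of the next step, was at 0.20 and -0.17 after sham operation and at -0.54 and -0.35 after injury. It differed by -0.46 (95% interval -0.92 to -0.01, adjusted p = 0.165 by limma). *Psph*, the phosphatase that releases serine, had the opposite sign and was at -0.15 and -0.11 after sham operation and at 0.11 and 0.14 after injury. Its replicates were close, and the difference was 0.26 (95% interval -0.07 to 0.58, adjusted p = 0.261 by limma). Of the 10 adipocyte markers, 6 had differences below 0 and 4 above, and *Plin1* alone was called, with a difference of -0.74 (adjusted p = 0.0444 by limma). The list medians were 0.24 and 0.30 after sham operation and -0.15 and 0.15 after injury. Their part in the values of *Phgdh* was not tested.

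Folate enzymes of the mitochondrion take the carbon of serine further. *Mthfd2* was at -0.40 and -0.39 after sham operation and at 0.46 and -0.17 after injury. The difference of 0.54 was not called (standard error 0.23, 95% interval -0.04 to 1.11, adjusted p = 0.192 by limma). It was 0.22 with injury replicate 1 left out, and 0.85 with a call (adjusted p = 0.0317 by limma) with injury replicate 2 left out. *Shmt2*, which feeds *Mthfd2*, was at -0.18 and -0.25 after sham operation and at -0.05 and -0.23 after injury. Its groups overlapped, and the difference was 0.07 (95% interval -0.28 to 0.43).

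Other genes of the pathway were taken from 6 lists by their known roles, 77 genes in all. Of these, 2 were called higher by limma, where 3.76% of all genes were, and 0 lower. *Slc7a11*, the cystine transporter of the xCT antiporter, was at -1.34 and -0.95 after sham operation and at 1.88 and 0.66 after injury. The difference was 2.41 (standard error 0.41, 95% interval 1.39 to 3.44, adjusted p = 0.0346 by limma) and 1.81 without injury replicate 1. *Cebpb*, a bZIP partner of ATF4 that is also known in adipocytes and macrophages, was at -0.42 and -0.59 after sham operation and at 0.58 and 0.74 after injury, a difference of 1.17 (standard error 0.15, 95% interval 0.80 to 1.54, adjusted p = 0.0285 by limma). In both genes the injury libraries lay far above the sham libraries. Leaving out a sham library left differences of 2.22 and 2.61 for *Slc7a11* and of 1.25 and 1.09 for *Cebpb*, in fits that called at most 1 gene of the whole table. Of the 13 macrophage markers 8 were called higher by limma, and their part in *Slc7a11* and *Cebpb* was not tested.

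Among the 10 ATF4 partner factors the largest further differences were those of *Fos* (0.996, adjusted p = 0.0540), *Batf* (0.73, adjusted p = 0.0772) and *Ddit3* (0.58, adjusted p = 0.0851), none of them called by limma. *Fos* was called after quantile normalization (adjusted p = 0.0470), and *Fos* and *Batf* were called without injury replicate 2 (adjusted p = 0.0166 and 0.0280). *Ddit3* encodes CHOP, the stress factor induced by ATF4, and was at -0.18 and -0.38 after sham operation and at 0.42 and 0.19 after injury. Of the 11 amino acid transporter genes *Slc7a11* was the only called one, and the differences of the others had both signs. *Slc6a9*, a glycine transporter, differed by -0.97 (adjusted p = 0.0591 by limma), *Slc43a1*, a transporter of large neutral amino acids, by -0.94 (adjusted p = 0.185) and *Slc38a1*, a glutamine transporter, by 0.94 (adjusted p = 0.202). Single libraries weighed on these values, since *Slc43a1* differed by -0.32 without injury replicate 1 and *Slc38a1* by 0.46 without sham replicate 1. When injury replicate 2 was omitted, *Slc43a1* differed by -1.55 and *Slc6a9* by -1.20, and both were called (adjusted p = 0.00831 and 0.0247 by limma). *Slc6a9* was also called with the columns scaled to one spread (adjusted p = 0.0486). *Slc7a5*, a transporter of large neutral amino acids that is named after its values were seen, differed by 0.83 (adjusted p = 0.0524 by limma). It was called higher with the columns scaled (adjusted p = 0.0438) and without injury replicate 2 (adjusted p = 0.0337).

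None of the 15 genes of the eIF2 kinases and the eIF2 cycle was called. *Gcn1l1*, the ribosome-bound activator of GCN2, was at 0.48 and 0.40 after sham operation and at -0.07 and -0.13 after injury. Replicates of *Gcn1l1* were close in both groups, and the difference was -0.54 (95% interval -0.88 to -0.21, adjusted p = 0.0685 by limma). *Eif2ak2*, the kinase PKR that senses double-stranded RNA, differed by 0.45 and *Eif2b4*, a subunit of the eIF2 exchange factor, by 0.37 (adjusted p = 0.168 and 0.158 by limma). Of 17 enzymes of amino acid and folate metabolism 0 were called, with *Gpt2* at -1.03, *Cbs* at -0.69 and *Got1* at 0.60 as the largest differences. Their adjusted p-values were 0.0855, 0.250 and 0.147 by limma, and without injury replicate 1 their differences were -0.61, -0.18 and 0.31. With injury replicate 2 omitted in its place they were -1.45, -1.21 and 0.89, and all 3 were called (adjusted p = 0.00952, 0.0188 and 0.0292). Of 13 other ATF4 targets 0 were called, with *Stc2* at -0.72, *Gadd45a* at 0.72 and *Vldlr* at 0.64. The 11 partners of the synthetases, 0 of them called, were led by *Sepsecs* at -0.47, *Qrsl1* at 0.33 and *Aimp2*, a scaffold of the multisynthetase complex, at -0.27. Among these named genes, *Eif2ak2*, *Gadd45a* and *Qrsl1* differed by 0.25, 0.34 and 0.18 without injury replicate 1 and by 0.65, 1.09 and 0.48 without injury replicate 2, where *Gadd45a* was called (adjusted p = 0.0207 by limma). *Vldlr* and *Aimp2* differed by 0.93 and -0.47 without injury replicate 1 and by 0.34 and -0.070 without injury replicate 2. Without adjustment, 26 of the 77 pathway genes (33.8%) and 29.5% of all genes had p under 0.05.

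**Figure D5:**
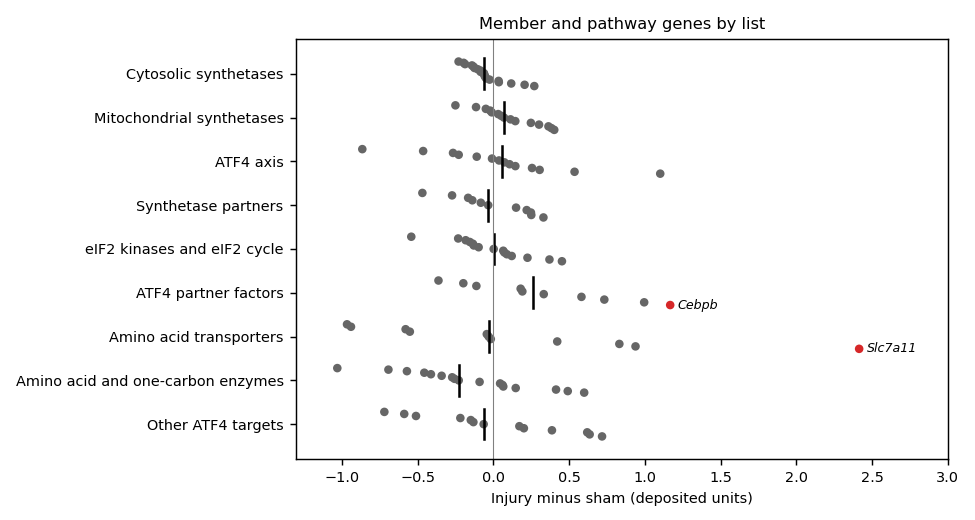
Difference between injury and sham means (deposited units, n = 2 libraries per group) of each gene in the member and pathway lists, with the list median as a black line and genes called by limma in red and named. The synthetase genes lie between -0.25 and 0.40, and *Slc7a11* at 2.41 and *Cebpb* at 1.17 are the called genes.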

How the data were processed

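RNA (480 ng per library) was prepared with a strand-specific mRNA kit and read as 150 bp paired ends. By the study's methods and the submitters' processing notes, the authors trimmed the reads with cutadapt 1.18 and Trimmomatic 0.39, aligned them to mm9 with STAR 2.6.0a, counted them per gene with featureCounts and used DESeq2 1.28.0. The values the authors deposited are a signed score per gene and library and not counts. They ran from -2.27 to 6.45, and 50.5% lay below 0. How they were made from counts, and the filter on genes, are not given in the sources used here, so no count model and no filter on low values was applied.

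The test was limma 3.58.1 in R 4.3.3 (lmFit and eBayes, group as the only term, all 4 libraries, Benjamini-Hochberg over 12661 genes). It added 3.48 prior degrees of freedom to 2 residual ones, and intervals are 95% intervals from its moderated standard errors. The fit was tested on simulated data. The members and lists were chosen with earlier results of these data known. Named were all members and, of each pathway list, the called genes and up to 3 others with the largest differences, and of the cell markers up to 3 of a list. Coordinates are from the GENCODE annotation of NCBIM37 (mm9), in which all 49 members were found. Of these, 9 overlap an analysed gene on the opposite strand, among them *Hars* with *Hars2* and *Mars* with *Ddit3*. Whether counting used strand is not given in the sources used here, so reads of such genes may have been shared. Promoters were matched by symbol, and *Mars* as Mars1. The sequence of 1 further match is not reported here. Tables were handled with pandas 2.3.3.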

Additional observations from a re-analysis of the deposited data

How the results depend on the processing

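The fit was repeated with the replicate number as a block, with each library omitted, after quantile normalization or scaling of the columns to one spread, with limma's robust prior, with identical rows merged, and at an adjusted p-value threshold of 0.1. A filter on low values was not run because abundance is unknown. The count of 0 called genes among cytosolic and among mitochondrial synthetases held under every alternative. In the ATF4 axis, 1 gene was called with the replicate block, *Atf3* (adjusted p = 0.0368 by limma, and 0.0368 to 0.115 over the alternatives that keep all 4 libraries). The replicate numbers are shared by label only, and deviations of same-numbered libraries from their group means correlated at -0.09. With the replicate block 684 genes of the table were called. Leaving out a library gave 0 to 2 called genes in the ATF4 axis, the 2 being *Phgdh* (lower, adjusted p = 0.0165) and *Mthfd2* (higher, adjusted p = 0.0317) without injury replicate 2. The same settings gave 0 to 13 of the pathway genes and 0 to 1790 genes of the table, with 0 in both without sham replicate 1, 1 gene of the table without sham replicate 2, 284 without injury replicate 1 and 1790 without injury replicate 2, in fits that leave 1 library in a group and assume that it varies like the others. *Slc7a11* and *Cebpb* kept their calls under every alternative but the fits without a sham library, in which at most 1 gene of the table was called. *Fos* gained a call with the block (adjusted p = 0.0462) and *Plin1* lost its call (0.0656). Columns scaled to one spread gave 4 called pathway genes, and the threshold of 0.1 gave 13 and, in the whole table, 2317. Quantile normalization turned *Hars2* and *Trib3* to 0.0052 and 0.0015. In 24 of the 49 members the sign turned when a library was left out, and the differences ranged as follows, for *Aars* (-0.073 to 0.15), *Cars* (-0.26 to 0.16), *Dars* (-0.17 to 0.0073), *Hars* (-0.012 to 0.081), *Lars* (-0.24 to 0.032), *Nars* (-0.12 to 0.011), *Rars* (-0.11 to 0.058), *Tars* (-0.15 to 0.027), *Wars* (-0.27 to 0.15), *Yars* (-0.18 to 0.010), *Aars2* (-0.13 to 0.27), *Fars2* (-0.10 to 0.17), *Hars2* (-0.054 to 0.033), *Iars2* (-0.29 to 0.058), *Lars2* (-0.31 to 0.21), *Mars2* (-0.59 to 0.088), *Wars2* (-0.013 to 0.12), *Yars2* (-0.048 to 0.0066), *Atf5* (-0.16 to 0.38), *Asns* (-0.15 to 0.23), *Trib3* (-0.18 to 0.16), *Chac1* (-0.28 to 0.059), *Shmt2* (-0.017 to 0.16) and *Nupr1* (-0.011 to 0.30). In 17 further members the difference kept its sign but moved by over 1.5 times, for *Eprs* (-0.34 to -0.034), *Gars* (0.065 to 0.17), *Iars* (-0.32 to -0.14), *Kars* (-0.20 to -0.082), *Mars* (-0.23 to -0.032), *Qars* (-0.27 to -0.12), *Sars* (-0.12 to -0.00011), *Ears2* (0.20 to 0.40), *Nars2* (0.077 to 0.21), *Rars2* (0.23 to 0.54), *Sars2* (0.057 to 0.17), *Atf3* (0.70 to 1.51), *Sesn2* (-0.45 to -0.084), *Psat1* (-0.65 to -0.28), *Phgdh* (-1.32 to -0.41), *Mthfd2* (0.22 to 0.85) and *Eif2ak4* (-0.38 to -0.077). Depth is unknown, so its limits cannot be stated.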
